A study of Gallus gallus with 9 samples.

Results

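The small leucine-rich proteoglycans and dermatopontin form a group of 8 secreted matrix genes, LUM, DCN, OGN, FMOD, KERA, ASPN, PRELP and DPT. They were chosen by gene symbol, and each symbol was found in all 9 gene tables, always with an Ensembl identifier, so the group is 8 of 24881 Ensembl genes measured. RNA sequencing libraries of chicken cells at passage 1 fell into 3 groups of 3. Primary myoblasts (PM) were taken just after serial plating. GM cells were proliferating myoblasts in growth medium (RPMI-1640 with 15% fetal bovine serum). DM cells were labelled myotubes, after 4 days in differentiation medium (RPMI-1640 with 2% horse serum). All groups came from the skeletal muscle of chicken embryos, and no genotype, strain or embryo age was given. The design text names the question as the genes whose expression differs during chicken myogenesis.

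Small leucine-rich proteoglycans are proteins built on a curved row of leucine-rich repeats, many of which carry sugar chains of the chondroitin, dermatan or keratan sulfate type. They bind collagen fibrils and set how these assemble and how thick they grow, and several bind growth factors such as TGF-beta. Dermatopontin is a small tyrosine-rich matrix protein without leucine-rich repeats, which binds decorin and collagen. In muscle these proteins lie in the connective tissue around the fibres, where fibroblasts make much of them, and decorin is known to bind myostatin and TGF-beta, which restrain muscle growth.

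The genes lie in 3 clusters and 1 single place, with positions as the files list them, in a genome build that is not given in the sources used here. On the minus strand of chromosome 1 lie KERA (ENSGALG00000011270, 43969658 to 43979925), LUM (ENSGALG00000011271, 43987396 to 43999595) and DCN (ENSGALG00000011274, 44019260 to 44058954). A gap of 7471 bases separates KERA from LUM, and 1 of 19665 bases separates LUM from DCN. On the plus strand of chromosome 12 lie ASPN (ENSGALG00000004722, 3382143 to 3397878) and OGN (ENSGALG00000026736, 3424659 to 3435067), 26781 bases apart. On chromosome 26 lie FMOD (ENSGALG00000034067, minus strand, 5133650 to 5140211) and PRELP (ENSGALG00000034456, plus strand, 5170534 to 5172975), 30323 bases apart. DPT (ENSGALG00000039376) lies alone on the plus strand of chromosome 1, at 83908116 to 83934219, with no listed gene within 50000 bases. The gene that the files call ASPN, between ECM2 and OMD, stands under the symbol BGN in the RefSeq annotation of GRCg7b, which lists no ASPN. The files' name is kept here, and values given for ASPN belong to that locus.

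The libraries held 16052542 to 27546527 counted reads each. Levels are the authors' FPKM values (fragments counted per kilobase of gene, scaled to the depth of the library), given as the mean ± SD of 3 libraries. Log2 fold changes come from edgeR's quasi-likelihood test on the deposited counts, fitted over 14796 genes, and a gene was called at an adjusted p (Benjamini-Hochberg, over all genes tested) below 0.05. Whether the 3 libraries of a group stem from separate embryos or cultures is not labelled, and the spread behind the p-values may be technical. GM replicate 3 stood apart from the other GM libraries, and its values are given beside the results of the chosen genes that they move. GM means of other genes given below moved with it too, and not each is marked. In GM replicates 1, 2 and 3, MMP13 had 1773, 1349 and 3202 reads, COL1A2 47539, 50878 and 30823, and ECM2 432, 402 and 277. Of the 6 myoblast and myotube markers found, all were present in every group. Their summed level was highest in the GM libraries, at 1905 to 3416 FPKM, against 1160 to 1234 FPKM in PM and 1015 to 1083 FPKM in the DM libraries labelled myotubes. DES was at 155 ± 3.66, 811 ± 407 and 142 ± 7.98 FPKM in PM, GM and DM, and TNNT3 at 61.5 ± 5.38, 604 ± 314 and 342 ± 28.4 FPKM. GM replicate 3 raised both GM means, with 51625 DES reads against 22093 and 18375, and 30242 TNNT3 reads against 11357 and 11545. TNNT3 was not called in DM against GM (edgeR adjusted p = 0.0663). By gene, 3 rose and 2 fell in GM against PM, and 0 rose and 3 fell in DM against GM. In DM against PM, 2 rose (MYOG and TNNT3) and 2 fell (MYOD1 and MYF5). Over all genes tested, 66.1% were called in GM against PM, 61.1% in DM against GM and 66.2% in DM against PM.

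The 8 genes together were highest in DM and lowest in GM. Their summed level was 758, 734 and 730.3 FPKM in the PM libraries, 549, 524 and 314 FPKM in the GM libraries and 1255, 1193 and 1390 FPKM in the DM libraries. The 3 groups did not overlap, and the lowest value of all was that of GM replicate 3. The mean was 741 ± 15.1 FPKM in PM, 462 ± 129 FPKM in GM and 1279 ± 100.4 FPKM in DM (SD, n = 3). Nearly all of it came from a few genes, and the mixture changed between the groups. PRELP made up 46.2% of the sum in PM, 36.3% in GM and 17.0% in DM. DCN made up 40.4%, 56.2% and 52.5%. LUM made up 11.5%, 5.49% and 22.3%, and DPT 0.113%, 0.449% and 6.32%. In bulk RNA, fewer cells of a type and less RNA per cell cannot be told apart.

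**Figure D1:**
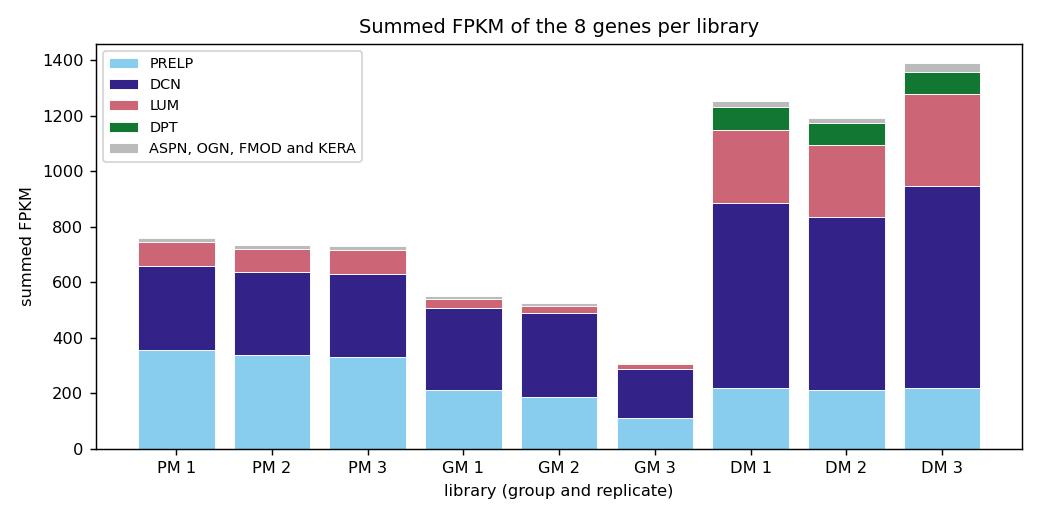
Summed FPKM of the 8 genes in each of the 9 libraries (bars, from 0), split by gene. The DM libraries reach 1193 to 1390 FPKM, above the PM libraries at 730.3 to 758 FPKM, and GM replicate 3 is lowest at 314 FPKM.

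Ordered by FPKM, PRELP and DCN led in PM, ahead of LUM and ASPN, with no overlap between these 4 genes. OGN, at 0.858 ± 0.515 FPKM, and DPT, at 0.835 ± 0.229 FPKM, did not differ beyond their spread there, and FMOD, which overlapped the lowest OGN library, and KERA came last. In GM, DCN was above PRELP in each of the 3 libraries, although their ranges overlapped across libraries because both were low in GM replicate 3. OGN and DPT overlapped in GM, with OGN above DPT in 1 library and below it in 2. In DM the order was DCN, LUM, PRELP, DPT, OGN, ASPN, FMOD and KERA, and the libraries of OGN and ASPN overlapped. Order between genes depends on the length used. The FPKM values of LUM, DCN, OGN and KERA imply lengths of 75.7%, 79.4%, 78.9% and 52.4% of those listed in the tables, and those of the other genes imply the listed length. Per kilobase of listed length, LUM and PRELP had the same mean level in DM, at 220.4 ± 30.9 and 220.4 ± 4.02, so neither can be placed above the other. Comparisons of one gene between groups do not depend on the length used for scaling.

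**Figure D2:**
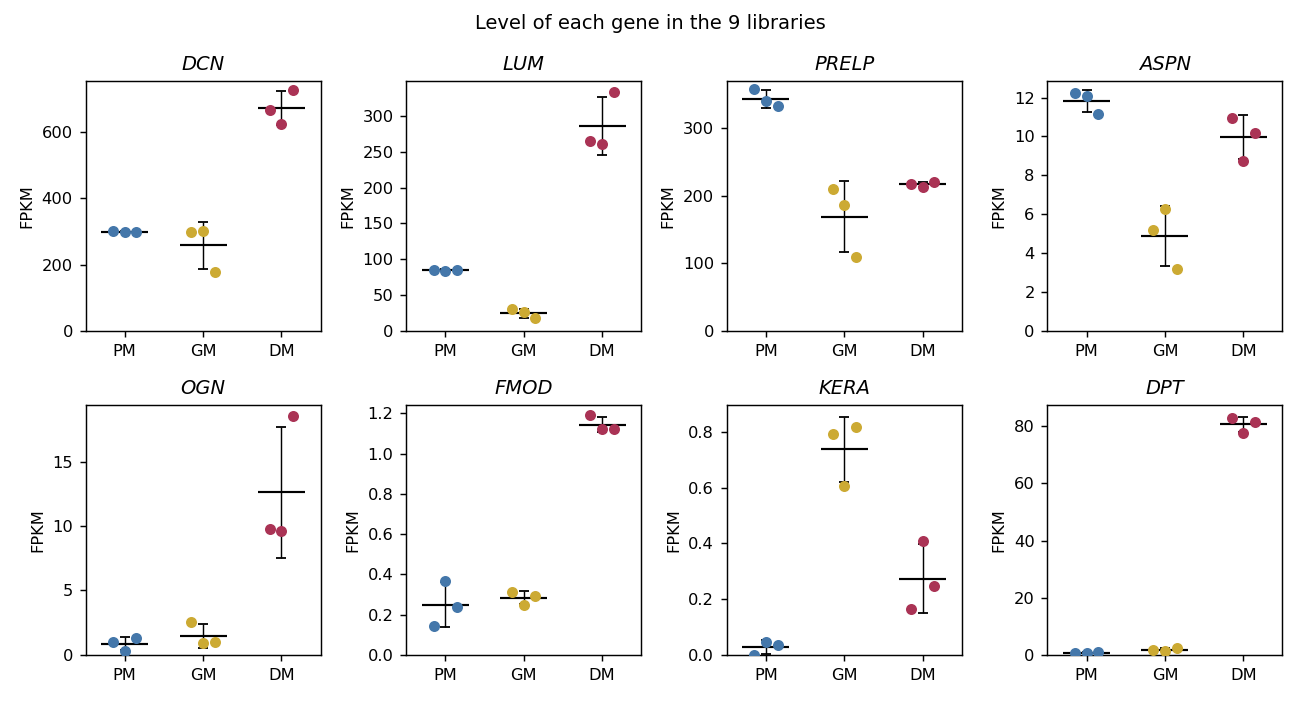
FPKM of each gene in every library (points, a linear axis from 0 for each gene) with the group mean (horizontal line) and SD (error bar), for PM, GM and DM. LUM, DCN, OGN, FMOD and DPT are highest in DM, PRELP and ASPN are lowest in GM, and KERA is highest in GM.

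DCN encodes decorin, a proteoglycan with 1 chondroitin or dermatan sulfate chain that binds collagen fibrils, TGF-beta and myostatin. It was at 302, 298 and 299 FPKM in PM, at 298, 302 and 178 FPKM in GM and at 667, 623 and 726 FPKM in DM. The DM libraries lay far above all others, while PM and GM overlapped in FPKM and GM replicate 3 stood low. With counts scaled as in the edgeR fit, all GM libraries lay below all PM libraries. DCN rose in DM against GM by 1.44 ± 0.16 (log2 fold change with its SE; adjusted p in edgeR = 3.07e-05) and against PM by 1.07 ± 0.16 (edgeR adjusted p = 0.000184). In DM it ranked between 142 and 157 of 24881 genes by FPKM. Between GM and PM its log2 fold change was -0.36 (95% interval -0.71 to -0.01), with an adjusted p of 0.0649 that did not pass in the edgeR fit. It was -0.16 without GM replicate 3 (edgeR adjusted p = 0.0520). Without GM replicate 1 it was -0.47 (edgeR adjusted p = 0.0329), and without GM replicate 2 it was also -0.47 (edgeR adjusted p = 0.0356), so the call turned on single GM libraries.

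The symbol ASPN stands for asporin, the relative of decorin that binds collagen and, in mammals, TGF-beta. RefSeq names this locus BGN, so which product the values belong to is not settled. Levels at the locus were 12.2, 12.1 and 11.2 FPKM in PM, 5.19, 6.25 and 3.21 FPKM in GM and 10.97, 8.75 and 10.2 FPKM in DM. All GM libraries lay below all PM and DM libraries, and the DM libraries lay just below those of PM. ASPN fell in GM against PM by 1.43 ± 0.19 on the log2 scale (edgeR adjusted p = 5.31e-05) and rose in DM against GM by 1.10 ± 0.19 (edgeR adjusted p = 0.000409). Without GM replicate 3, the lowest library, these became -1.21 and 0.88, both still called. DM against PM gave -0.33 (95% interval -0.74 to 0.07, edgeR adjusted p = 0.127). This difference was called without GM replicate 3, at -0.33 (edgeR adjusted p = 0.0123), with an SE of 0.11 in place of 0.18.

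LUM encodes lumican, a keratan sulfate proteoglycan that limits the width of collagen fibrils. Of LUM, DCN and PRELP, the most abundant genes in PM and GM, it had the largest log2 fold change in each comparison, first down and then up. LUM was at 85.7, 84.2 and 85.6 FPKM in PM, at 30.5, 26.3 and 18.5 FPKM in GM and at 265, 261 and 332 FPKM in DM. The groups were far apart, with GM below PM and PM below DM. LUM fell 3.77-fold in GM against PM (log2 fold change -1.92 ± 0.15, edgeR adjusted p = 2.61e-06). It rose 11.9-fold in DM against GM (3.57 ± 0.16, edgeR adjusted p = 5.61e-08) and 3.15-fold in DM against PM (1.66 ± 0.15, edgeR adjusted p = 4.86e-06). Its place by FPKM among 24881 genes moved from 1369 to 1424 in PM through 3700 to 5413 in GM to 248 to 333 in DM. Without GM replicate 3 the fall was -1.75 and the rise in DM against GM was 3.41.

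PRELP encodes prolargin, which carries a basic, arginine- and proline-rich end that binds heparan sulfate and links basement membranes to collagen. Like LUM it was lower in GM than in PM, but unlike LUM it had its highest level in PM. PRELP was at 357, 339 and 332 FPKM in PM, at 210.2, 186 and 109.8 FPKM in GM and at 218, 212 and 220.0 FPKM in DM. No groups overlapped, although DM lay only just above the highest GM library. PRELP fell in GM against PM by 1.17 ± 0.18 on the log2 scale (edgeR adjusted p = 0.000305) and was lower in DM than in PM by a log2 fold change of -0.75 ± 0.18 (edgeR adjusted p = 0.00448). The second call was lost on quantile-normalized FPKM, at -0.29 (limma adjusted p = 0.247). DM against GM gave 0.42 (95% interval 0.02 to 0.83), with an edgeR adjusted p of 0.0653 that did not pass. It passed at 0.20 without GM replicate 3 (edgeR adjusted p = 0.0239) and at 0.61 without GM replicate 1 (edgeR adjusted p = 0.00982). In DESeq2 it was 0.41 and passed (adjusted p = 0.0311).

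FMOD encodes fibromodulin, the tendon and cartilage relative of lumican that binds the same fibrils. It was low throughout and rose to a mean of 1.14 FPKM in DM. FMOD was at 0.143, 0.367 and 0.237 FPKM in PM (6, 16 and 13 reads) and at 0.312, 0.248 and 0.292 FPKM in GM (20, 15 and 21 reads). In DM it was at 1.19, 1.12 and 1.12 FPKM (73, 67 and 64 reads). The DM libraries were all above the rest, and PM and GM overlapped. FMOD rose in DM against GM by 2.05 ± 0.28 (edgeR adjusted p = 7.52e-05) and against PM by 2.10 ± 0.30 (edgeR adjusted p = 8.74e-05). Its difference between GM and PM, 0.041 (95% interval -0.69 to 0.77, edgeR adjusted p = 0.921), was not detectable at this depth.

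KERA encodes keratocan, best known as a keratan sulfate proteoglycan of the cornea. It was close to the limit of counting and was highest in GM. KERA had 0, 1 and 1 reads in PM, 25, 18 and 29 reads in GM and 5, 12 and 7 reads in DM. The groups did not overlap, in the order GM, DM and PM. In FPKM these were 0, 0.0466 and 0.0371 in PM, 0.791, 0.605 and 0.819 in GM and 0.165, 0.408 and 0.249 in DM. With 2 reads in the whole of PM, a ratio is uncertain. Adjusted for depth, GM held 25.6 times the reads of PM (95% exact interval 6.82 to 215) and DM 9.40 times (2.33 to 82.1), where intervals cover counting error only. The differences were called in edgeR for GM against PM (adjusted p = 0.000106) and for DM against PM (adjusted p = 0.00417). In DM against GM KERA fell by 1.37 ± 0.40 on the log2 scale (edgeR adjusted p = 0.0114), a call lost without DM replicate 1, at -1.11 (edgeR adjusted p = 0.0540). KERA reached the level needed for testing in all 3 GM libraries, in 1 DM library and in 0 PM libraries, so it entered the test through GM, where it is high.

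OGN encodes osteoglycin, also called mimecan, a member of the class with fewer leucine-rich repeats, first known from bone. It was at 1.01, 0.283 and 1.28 FPKM in PM (31, 9 and 51 reads), at 2.56, 0.907 and 0.973 FPKM in GM (120, 40 and 51 reads) and at 9.74, 9.60 and 18.5 FPKM in DM (436, 418 and 771 reads). All DM libraries were above all others, but the replicates of each group were spread widely, with GM replicate 1 and DM replicate 3 high and PM replicate 2 low. OGN rose in DM against GM by 3.14 ± 0.51 (edgeR adjusted p = 0.000695) and against PM by 3.75 ± 0.56 (edgeR adjusted p = 0.000357). Without GM replicate 1 the first of these was 3.79. GM against PM gave 0.60 (95% interval -0.77 to 1.97, edgeR adjusted p = 0.401), and -0.041 without GM replicate 1 (edgeR adjusted p = 0.955).

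DPT, which encodes dermatopontin, was near silent in PM and GM and abundant in DM. It was at 0.680, 0.726 and 1.10 FPKM in PM (9, 10 and 19 reads), at 1.58, 1.52 and 2.42 FPKM in GM (32, 29 and 55 reads) and at 82.8, 77.5 and 81.4 FPKM in DM (1607, 1463 and 1471 reads). The DM libraries lay close together and far above the others. DPT rose 44.9-fold in DM against GM (log2 fold change 5.49 ± 0.18, edgeR adjusted p = 2.25e-09) and 87.9-fold against PM (6.46 ± 0.21, edgeR adjusted p = 2.08e-09). Counted from the largest rise, these placed it at 16 and 23 of the 14796 genes tested. It also rose in GM against PM, by 0.97 ± 0.26 (edgeR adjusted p = 0.00688), and by 0.69 without GM replicate 3 (edgeR adjusted p = 0.0315).

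Side by side, the comparisons called most of these genes, as they did most genes of the transcriptome. In GM against PM, 2 genes rose (KERA and DPT) and 3 fell (LUM, ASPN and PRELP), so 5 of 8 were called. This stands against 66.1% of all genes tested (32.0% higher and 34.1% lower). In DM against GM, 6 rose (LUM, DCN, OGN, FMOD, ASPN and DPT) and 1 fell (KERA), against 61.1% of all genes called (30.8% higher and 30.3% lower). In DM against PM, 6 rose (LUM, DCN, OGN, FMOD, KERA and DPT) and 1 fell (PRELP), against 66.2% of all genes called (33.5% higher and 32.7% lower). KERA passed the filter through GM, where it is high, so its differences from GM are not independent of the filter. Without it, 1 rose and 3 fell of 7 in GM against PM, 6 rose and 0 fell in DM against GM, and 5 rose and 1 fell in DM against PM. The median log2 fold change of the 8 genes was -0.16, 1.75 and 1.88 in these comparisons, beside -0.012, -0.00022 and 0.02 over all genes tested. Without KERA it was -0.36, 2.05 and 1.66. The comparisons share libraries, so their counts are not independent of each other.

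**Figure D3:**
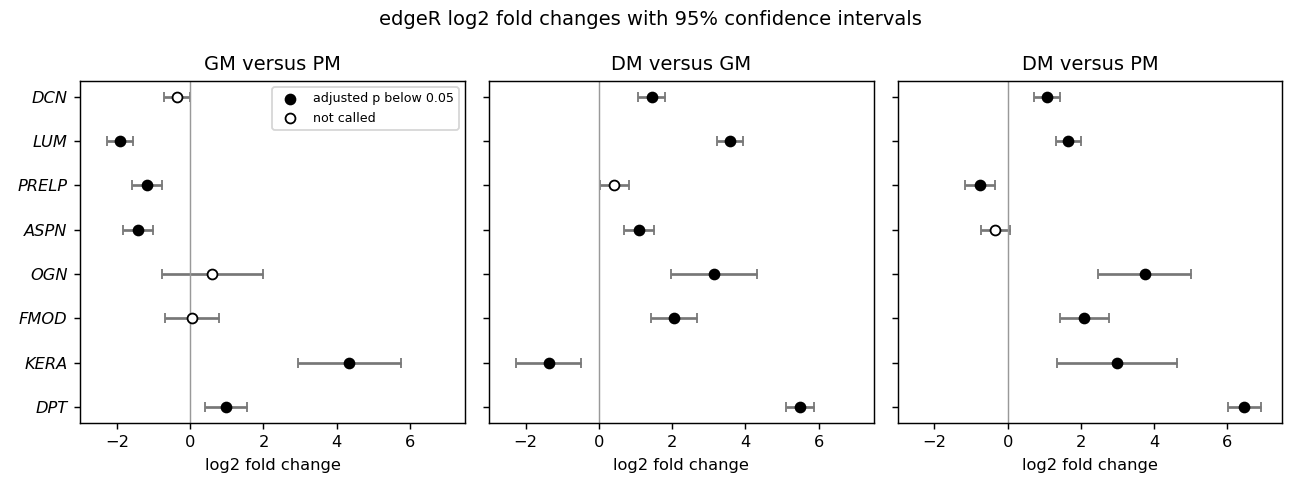
Log2 fold change of each gene (points, filled where called) with its 95% interval (lines) in the 3 comparisons, from the edgeR fit. In DM against GM 6 genes were called higher and KERA lower, and DPT reached 5.49.

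On chromosome 1, LUM and DCN were both called higher in DM than in PM and GM, and their means were both lowest in GM, where only LUM was called against PM. The difference between their fold changes was not tested. KERA beside them was highest in GM. EPYC, which encodes epiphycan of cartilage and lies 21925 bases from KERA, had 14, 1 and 2 reads in all of PM, GM and DM and was not tested. On chromosome 12, ECM2, a matrix gene with leucine-rich repeats lying 12936 bases from ASPN, stood at 7.53 ± 0.745, 7.0 ± 2.0 and 63.9 ± 6.77 FPKM (SD, n = 3) in PM, GM and DM. It rose in DM against GM by 3.26 ± 0.18 (edgeR adjusted p = 2.80e-07), beside 3.14 for OGN and 1.10 for ASPN. OMD, which encodes osteomodulin of bone, had 10, 11 and 17 reads and was not tested. ECM2, ASPN, OMD and OGN all lie inside the span of CENPP, a centromere gene on the minus strand. CENPP was at 25.4, 14.5 and 6.0 FPKM in PM, GM and DM, and fell in DM against PM by 2.17 ± 0.23 on the log2 scale (edgeR adjusted p = 1.00e-05). Use of strand is not given, so reads of CENPP and of these genes cannot be told apart where they overlap.

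On chromosome 26, FMOD rose in DM against PM by 2.10 while PRELP fell by 0.75 on the log2 scale. OPTC, which encodes opticin of the eye's vitreous body and lies 3878 bases from PRELP, was at 2.11 ± 0.536, 1.93 ± 0.288 and 0.538 ± 0.167 FPKM (SD, n = 3) in PM, GM and DM. It fell in DM against PM by 2.06 ± 0.30 (edgeR adjusted p = 9.62e-05).

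**Figure D4:**
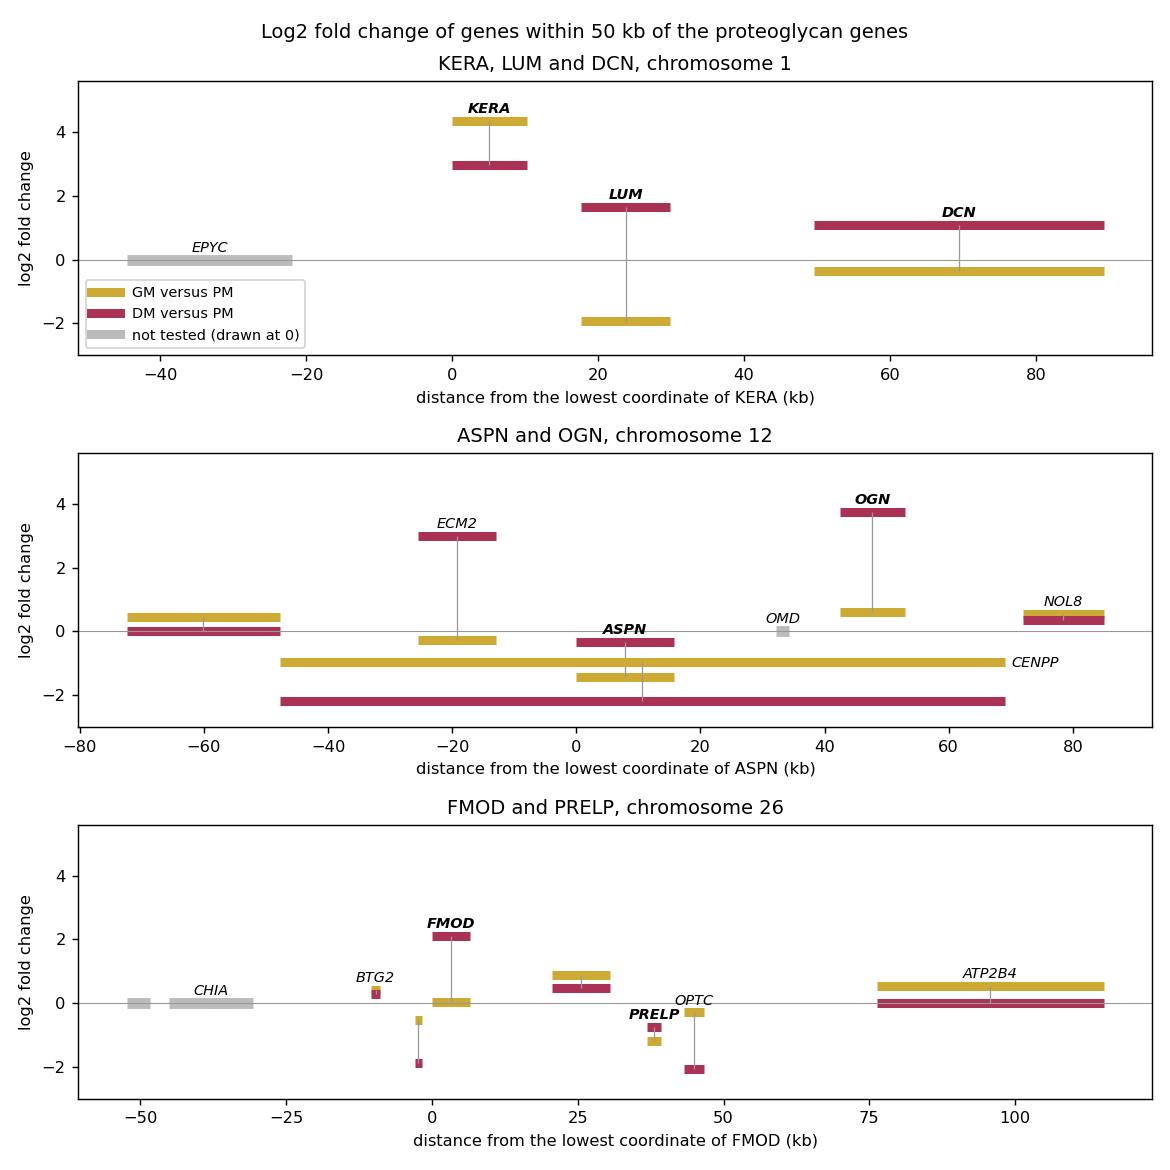
Position (distance from the lowest coordinate of the first gene, kb) and log2 fold change of genes within 50 kb of the 7 proteoglycan genes, for GM against PM and DM against PM, with those 7 in bold untested genes in grey at 0 and genes without a symbol unlabelled. ECM2 and OGN reach 3.0 and 3.75 in DM against PM, while ASPN between them is at -0.33.

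Among 11 other genes of the proteoglycan family, 7 were tested. In GM against PM 2 rose and 3 fell, in DM against GM 4 rose and 2 fell, and in DM against PM 4 rose and 1 fell. The median log2 fold changes were -0.29, 1.65 and 0.71. Over all genes tested, 32.0%, 30.8% and 33.5% were called higher and 34.1%, 30.3% and 32.7% lower. CHAD, which encodes chondroadherin, a cartilage protein that binds integrins, was at 5.45 ± 0.315, 0.294 ± 0.0632 and 5.46 ± 0.339 FPKM (SD, n = 3) in PM, GM and DM. It fell by 4.36 ± 0.17 in GM against PM (edgeR adjusted p = 2.34e-08) and rose by 4.27 ± 0.17 in DM against GM (edgeR adjusted p = 8.72e-09). PODN, which encodes podocan, was at 5.22 FPKM in PM and 2.83 FPKM in GM, and rose to 14.1 FPKM in DM (2.36 ± 0.18 against GM, edgeR adjusted p = 9.85e-07). TSKU, which encodes tsukushi, an inhibitor of BMP signalling in the chick, rose from 11.4 FPKM in PM to 31.8 FPKM in GM (1.34 ± 0.14, edgeR adjusted p = 9.57e-06) and was at 30.3 FPKM in DM. NYX is counted as higher in GM than in PM and lower in DM than in GM. It had 7, 6 and 7 reads in PM, 26, 32 and 38 in GM and 9, 9 and 9 in DM. Like KERA, NYX entered the test through GM, where it is high, so those calls are no independent evidence. Several family genes, biglycan under its own symbol among them, were not analysed here.

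Collagens, the fibril proteins that these proteoglycans bind, were called higher in DM more often than lower. Of 10 fibril collagens and partners tested, 5 rose and 1 fell in GM against PM, 8 rose and 0 fell in DM against GM, and 8 rose and 0 fell in DM against PM. Their median log2 fold changes were 0.43, 0.72 and 1.51, beside the all-gene medians given above. Of all genes tested, 66.1%, 61.1% and 66.2% were called in either direction. COL1A2, a chain of type I collagen, was at 776 ± 9.14, 649 ± 209 and 2408 ± 170 FPKM (SD, n = 3) in PM, GM and DM and rose by 1.95 ± 0.19 in DM against GM (edgeR adjusted p = 1.84e-05). COL5A2, a chain of the type V collagen that starts fibrils, rose from 103 FPKM in GM to 318 FPKM in DM (1.69 ± 0.15, edgeR adjusted p = 5.72e-06). The other type V chain tested, at 300, 291 and 325 FPKM in PM, GM and DM, was not called in any comparison. COL12A1, a collagen of the fibril surface, rose from 92.2 FPKM in PM to 386 FPKM in DM (1.98 ± 0.14, edgeR adjusted p = 5.28e-07). The 3 chains of type VI collagen, a microfibril that decorin binds, rose already in GM against PM, COL6A1 by 1.45 ± 0.07, COL6A2 by 1.00 ± 0.08 and COL6A3 by 1.26 ± 0.08 (edgeR adjusted p at most 1.84e-06).

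Of 14 collagen processing and crosslinking genes tested, 2 rose and 7 fell in GM against PM, 10 rose and 2 fell in DM against GM, and 9 rose and 1 fell in DM against PM. The median log2 fold changes were -0.44, 0.81 and 0.67, and 66.1%, 61.1% and 66.2% of all genes tested were called in either direction. LOXL4 is counted as higher in GM than in PM and lower in DM than in GM. It had 6, 2 and 1 reads in PM, 41, 34 and 44 in GM and 2, 4 and 3 in DM. Like KERA, LOXL4 entered the test through GM, where it is high, so those calls are no independent evidence. TLL1, a protease of the BMP1 family that trims procollagen, was at 7.60, 2.66 and 16.0 FPKM in PM, GM and DM, and rose by 2.65 ± 0.19 in DM against GM (edgeR adjusted p = 6.07e-07). FKBP10, a chaperone of procollagen, was at 146, 72.5 and 243 FPKM, and rose by 1.81 ± 0.13 in DM against GM (edgeR adjusted p = 5.33e-07). PCOLCE2, which enhances procollagen trimming, instead fell from 172 FPKM in PM to 62.6 FPKM in GM (-1.61 ± 0.16, edgeR adjusted p = 1.07e-05) and was at 59.0 FPKM in DM.

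Of 23 genes tested that build or sulfate the sugar chains, or sulfate tyrosines, 5 rose and 12 fell in GM against PM, 14 rose and 6 fell in DM against GM, and 8 rose and 7 fell in DM against PM. The median log2 fold changes were -0.35, 0.53 and -0.04, and 66.1%, 61.1% and 66.2% of all genes tested were called in either direction. CHST1 is counted as higher in GM than in PM and lower in DM than in GM. It had 6, 9 and 16 reads in PM, 43, 32 and 41 in GM and 1, 2 and 4 in DM. Like KERA, CHST1 entered the test through GM, where it is high, so those calls are no independent evidence. CSGALNACT1, which starts chondroitin chains, was at 0.971 ± 0.0441, 2.97 ± 0.0922 and 13.3 ± 0.428 FPKM (SD, n = 3) in PM, GM and DM, and rose by 3.68 ± 0.10 in DM against PM (edgeR adjusted p = 9.92e-10). UST, which sulfates uronic acids in chondroitin and dermatan sulfate, was at 10.3, 17.6 and 39.9 FPKM and rose by 1.87 ± 0.17 in DM against PM (edgeR adjusted p = 3.32e-06). B4GALT4, a galactosyltransferase of keratan sulfate synthesis, rose from 22.9 FPKM in GM to 55.2 FPKM in DM (1.33 ± 0.12, edgeR adjusted p = 3.65e-06). PAPSS2, which makes the sulfate donor, fell from 6.68 FPKM in PM to 2.28 FPKM in DM (-1.64 ± 0.18, edgeR adjusted p = 1.12e-05). PAPSS1, the other gene for this donor in the list, was far more abundant, at 84.8, 53.7 and 74.3 FPKM in PM, GM and DM. Its log2 fold change was -0.28 ± 0.09 in DM against PM (edgeR adjusted p = 0.0178) and 0.53 ± 0.09 in DM against GM (edgeR adjusted p = 0.000431).

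Of 9 proteases that cut these proteoglycans, and their inhibitors, 3 rose and 4 fell in GM against PM, 3 rose and 4 fell in DM against GM, and 2 rose and 5 fell in DM against PM. The median log2 fold changes were -0.20, -0.14 and -0.43, and 66.1%, 61.1% and 66.2% of all genes tested were called in either direction. MMP2, a gelatinase that can cut decorin, was at 256 ± 6.21, 179 ± 32.9 and 1562 ± 47.3 FPKM (SD, n = 3) in PM, GM and DM, and rose by 3.19 ± 0.11 in DM against GM (edgeR adjusted p = 2.74e-09). MMP13, a collagenase that can cut fibromodulin, was instead high in GM, at 2.79, 32.2 and 1.53 FPKM, and fell by 4.35 ± 0.28 in DM against GM (edgeR adjusted p = 1.15e-06). TIMP3, an inhibitor of such proteases, fell from 594 FPKM in GM to 145 FPKM in DM (-1.97 ± 0.10, edgeR adjusted p = 4.70e-08). TIMP2, the other inhibitor in the list, was at 688, 667 and 857 FPKM in PM, GM and DM. It rose by 0.42 ± 0.09 in DM against GM (edgeR adjusted p = 0.00223).

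**Figure D5:**
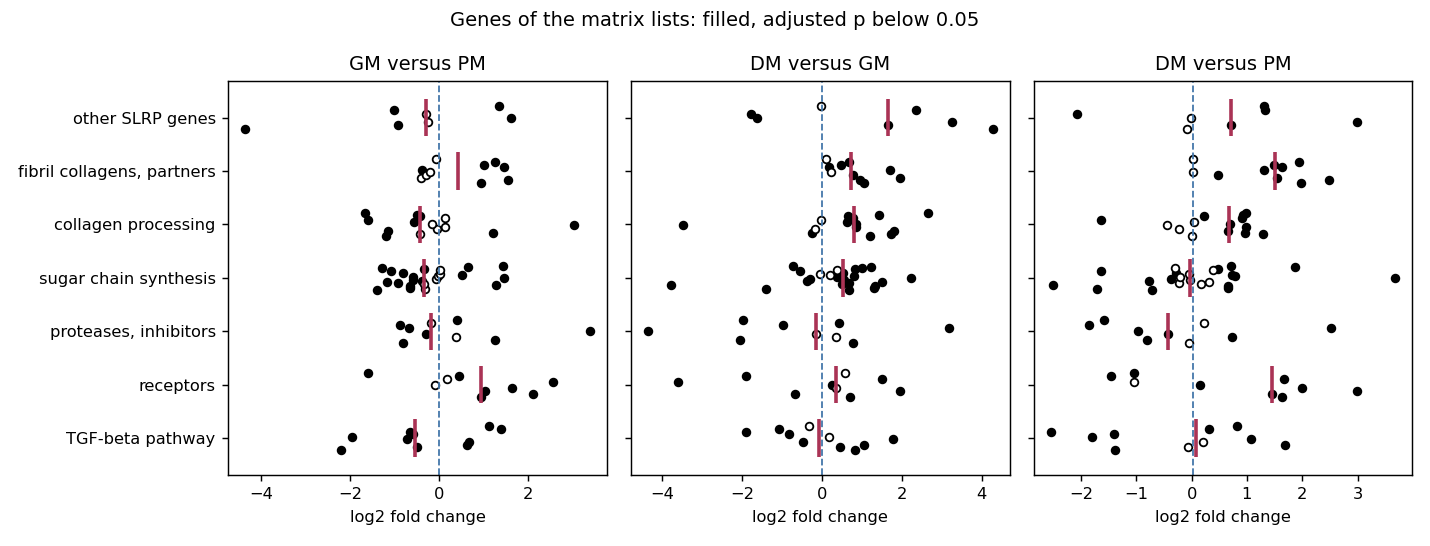
Log2 fold change of each tested gene in the matrix lists (points, filled where the edgeR adjusted p was below 0.05), with the list's median (red bar) and the median of all genes tested (dashed line), in the 3 comparisons. For fibril collagens and partners the median is 0.43, 0.72 and 1.51.

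The genes whose course over the 9 libraries was most like that of each gene were named by Pearson's r of log2 read counts scaled to depth, among 7247 or 7248 genes with a symbol and a mean of at least 5 FPKM. With 3 groups far apart, high values arise easily, and all libraries share their groups, so these are descriptions. LUM lay closest to PDGFRL, ANGPTL2 and SLC38A2 (r = 0.998, 0.997 and 0.996). DCN lay closest to COL1A2, PPP1R3C and SERPINF1 (r = 0.997, 0.996 and 0.995), and DPT to PHGDH, MYLK and PTGS2 (r = 0.998, 0.997 and 0.997). ASPN lay closest to C1orf123, SCP2 and STARD5 (r = 0.995, 0.988 and 0.985), and PRELP to RASL11B, ADPGK and TTC8 (r = 0.985, 0.983 and 0.979). For the low genes the best values were lower, with OGN closest to GPR39, B9D1 and FPGT (r = 0.973, 0.972 and 0.968), FMOD to HIC1, MPP2 and MKNK2 (r = 0.974, 0.972 and 0.970), and KERA to WWC1, ATIC and RABGAP1 (r = 0.973, 0.972 and 0.971). Between the chosen genes themselves, r was highest for FMOD and DPT (0.953), LUM and DCN (0.936), OGN and DPT (0.927) and ASPN and PRELP (0.898). It was lowest for KERA and PRELP (-0.911) and KERA and ASPN (-0.885).

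Markers of other cell types moved between the same groups, and their part in the results above was not tested. Their counts stand beside 66.1%, 61.1% and 66.2% of all genes called in GM against PM, DM against GM and DM against PM. Of 10 fibroblast markers 8 were in the files and 7 were tested, and in GM against PM 4 rose and 2 fell, in DM against GM 5 rose and 0 fell, and in DM against PM 6 rose and 0 fell. PDGFRA, PDGFRB, OSR1 and OSR2 rose in GM against PM, where THY1 and COL3A1 carry most of the summed level. That sum was 994 to 1026 FPKM in PM, 521 to 796 FPKM in GM and 1228 to 1363 FPKM in DM. The list's median log2 fold change was 0.71, 0.78 and 1.42 in the 3 comparisons, so by this median the fibroblast markers were not lowest in GM. TCF21, a fibroblast transcription factor, was below 0.5 FPKM in all groups. The 5 smooth muscle and myofibroblast markers summed to 1550 to 1644 FPKM in PM, 364 to 476 FPKM in GM and 2862 to 3438 FPKM in DM, carried by TAGLN and ACTA2. By gene 2 rose (MYH11 and MYLK) and 2 fell in GM against PM, 4 rose and 1 fell in DM against GM, and 3 rose and 0 fell in DM against PM. The 6 tendon markers summed to 149 to 162, 223 to 284 and 93.0 to 102.6 FPKM. EGR1, an immediate early gene at 136, 227 and 48.0 FPKM, made up most of that sum in PM and GM only. In DM, where the mean sum was 98.4 FPKM, the rest was mainly MKX, SCX and COMP (8.71 FPKM). By gene 3 rose and 3 fell in GM against PM, 3 rose and 2 fell in DM against GM, and 4 rose (SCX, MKX, TNMD and COMP) and 2 fell in DM against PM, with a median of 1.54. SCX and MKX, the tendon regulators, were at 3.84, 0.403 and 15.7 FPKM and at 8.94, 3.95 and 23.7 FPKM in PM, GM and DM. The 7 macrophage markers were highest in PM and summed to 706 to 747, 76.4 to 181 and 140 to 171 FPKM. The epidermis markers, of which 4 of 5 were found, were highest in GM, at 9.05 to 9.45, 30.4 to 74.5 and 12.7 to 14.0 FPKM. KRT5 and EPCAM among them were below 0.5 FPKM in all groups. The cartilage markers summed to at most 6.02 FPKM in any library and the neural crest and Schwann markers to at most 10.3 FPKM. Both sums were also highest in PM. Their means were 5.19, 3.77 and 1.96 FPKM and 9.75, 6.46 and 0.691 FPKM in PM, GM and DM. The endothelium markers summed to at most 6.67 FPKM, with CDH5, KDR, TIE1, TEK and VWF below 0.5 FPKM in all groups.

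GM replicate 3 differed from the other GM libraries in both directions. On the log2 scale, relative to the mean of GM replicates 1 and 2, LUM stood at -0.56, DCN at -0.70, OGN at -0.57, ASPN at -0.76 and PRELP at -0.79, while FMOD stood at 0.11, KERA at 0.27 and DPT at 0.66. For OGN, GM replicates 1 and 2 themselves differed by 1.48. In the same library the myoblast and myotube markers summed to 3416 FPKM, against 1905 to 2022 FPKM in the other GM libraries, and the fibroblast markers to 521 FPKM, against 788 to 796 FPKM. The lower fibroblast sum was mainly COL3A1, with 28117 reads against 42269 and 45233, and the median log2 deviation over the fibroblast markers differed by 0.037 from that of the other GM libraries. The macrophage markers there summed to 181 FPKM, against 76.4 to 77.5 FPKM.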

How the data were processed

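RNA was sequenced from 9 samples, 3 each of PM, GM and DM. The submitters' processing notes name HISAT (alignment) and HTSeq (read counting). Not given in the sources used here were tool versions, genome build, annotation release and strand setting. The authors deposited 1 table per sample with a raw read count and an FPKM value per gene, per the file headers. All counts are whole numbers. FPKM was computed by the authors. PM tables hold 25950 rows, and those of GM and DM hold 26593, from which 2 broken lines each were dropped. Features without an Ensembl identifier, with 1.58% to 2.12% of reads, were left out, which leaves 24881 genes and 15731818 to 27110310 reads per library. A count of 3 reads is 0.111 to 0.191 CPM. Chi-square per gene between replicates was 6.10 to 63.0, more than sampling noise gives. The biological coefficient of variation was 9.21% among PM libraries, 17.1% among GM libraries and 10.6% among DM libraries.

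After filterByExpr (14796 genes kept) and TMM normalisation, all 9 samples were fitted in 1 robust quasi-likelihood model with edgeR 4.0.16 in R 4.3.3, with no replicate block. Standard errors are the log2 fold change over the root of its F. Intervals are at 95%. limma 3.58.1 on log2(FPKM + pseudocount) and DESeq2 1.42.0 were alternatives, with each library left out in turn. In simulated data over 14796 genes, edgeR recovered 89.6% of 67 genes changed 2-fold in GM against PM, 98.5% in DM against GM and 89.6% in DM against PM. Of 67 genes changed 1.5-fold it recovered 53.7%, 56.7% and 67.2%. It called 12, 15 and 14 unchanged genes. The changed genes were drawn only from well-counted genes, and few genes were changed in each simulation, unlike in the libraries. These rates therefore do not cover low genes such as KERA and FMOD. All 8 genes are named. From each matrix list and comparison, up to 3 called genes with the largest change and a higher group mean of at least 5 FPKM could be named, and genes beside a chosen gene. NYX, LOXL4, KDR, CHST1, PAPSS1, TIMP2 and TGFB3 are named outside this rule, as limits on their lists or on genes named from them. The genes and lists were chosen with earlier results of these data known. No sequences are shown.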

Additional observations from a re-analysis of the deposited data

How the results depend on the processing

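With 18 other settings (some, such as limma on FPKM, change tool and measure together), the calls for LUM and DPT in GM against PM, and for LUM, DCN, OGN, FMOD, ASPN and DPT in DM against GM, kept their direction and stayed called. So did those for ASPN and PRELP in GM against PM and for LUM, DCN, OGN, FMOD and DPT in DM against PM. KERA passed the filter through its high GM level, so its calls are no independent evidence. It was called in GM against PM in all 18 settings. In DM against PM KERA was called in the 17 that tested it (it fell below the filter with 6 samples). Genes called over the transcriptome ranged from 8899 to 9868 in GM against PM, 8118 to 9206 in DM against GM and 8944 to 10535 in DM against PM. Of 431 values, 414 kept direction and side of the threshold. The differences that changed sign were all uncalled and in GM against PM, and the cause was not tested. On quantile-normalized log2(FPKM + 1) DCN was 0.11 and FMOD -0.10 (limma adjusted p = 0.625 and 0.334), FMOD was -0.22 without PM replicate 1 and -0.024 without GM replicate 1 (range without 1 library -0.22 to 0.40), and OGN was -0.041 without GM replicate 1 (range -0.041 to 1.06). DCN in GM against PM was called in DESeq2 (-0.35, adjusted p = 0.0407) and with the gene length trend removed (-0.39, edgeR adjusted p = 0.0376). Removing that trend moved DPT to 1.34 and PRELP to -0.88 in GM against PM. It moved PRELP to -0.58 in DM against PM, and these stayed called. ASPN in DM against PM was called with only those 6 samples fitted (-0.34, edgeR adjusted p = 0.0104). Same-numbered libraries did not deviate together (r = -0.107 to 0.101, with 3 of 9 libraries closest to their own number). With a replicate block 9537, 8755 and 9580 genes and 5, 8 and 7 of the 8 were called, the change being PRELP in DM against GM (0.45, edgeR adjusted p = 0.0377). The summed level was 999.7, 729 and 1878 in PM, GM and DM as TPM, and 441, 203 and 607 FPKM without DCN, which by construction differ from the FPKM sum and keep its order. Leaving out 1 library gave 732 to 746, 419 to 537 and 1224 to 1322 FPKM, an alternative chosen after the data were seen. Log2(FPKM + 1) understates low genes, with KERA at 0.76 in GM against PM and FMOD at 0.74 in DM against GM, and on log2(FPKM + 0.1) the median of all genes was 0.13 in GM against PM and 0.11 in DM against PM. Depth limits KERA and FMOD, and the PM tables' different row number cannot be told apart from the group.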

Other observations

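Receptors that bind these proteoglycans, and the TGF-beta pathway, were also measured. Counts of both lists stand beside 66.1%, 61.1% and 66.2% of all genes called in GM against PM, DM against GM and DM against PM. Of 9 receptor genes tested, 6 rose and 1 fell in GM against PM, 4 rose and 3 fell in DM against GM, and 6 rose and 2 fell in DM against PM, with median log2 fold changes of 0.94, 0.36 and 1.45. KDR is counted as higher in GM than in PM and lower in DM than in GM. It had 4, 1 and 6 reads in PM, 30, 44 and 28 in GM and 3, 4 and 0 in DM. KDR entered the test through GM, where it is high, so those calls are no independent evidence. LRP1, which takes up decorin, was at 35.1, 43.6 and 119.5 FPKM in PM, GM and DM, and rose by 1.51 ± 0.08 in DM against GM (edgeR adjusted p = 6.30e-08). EGFR, which decorin binds in mammals, was at 7.07, 15.0 and 23.2 FPKM and rose by 1.63 ± 0.14 in DM against PM (edgeR adjusted p = 1.78e-06). MET, another growth factor receptor that decorin binds, was at 13.7, 20.6 and 5.30 FPKM and fell by 1.90 ± 0.15 in DM against GM (edgeR adjusted p = 1.75e-06). IGF1R rose from 4.54 FPKM in PM to 21.8 FPKM in GM (2.12 ± 0.10, edgeR adjusted p = 4.86e-08).

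Of 10 TGF-beta pathway genes tested, 4 rose and 6 fell in GM against PM, 4 rose and 4 fell in DM against GM, and 4 rose and 4 fell in DM against PM, with medians of -0.55, -0.07 and 0.08. TGFB1, a ligand, was at 544 ± 32.8 FPKM (SD, n = 3) in PM, 155 ± 7.84 FPKM in GM and 167 ± 30.5 FPKM in DM, and fell by 1.96 ± 0.12 in GM against PM (edgeR adjusted p = 3.41e-07). TGFB3, another ligand, was at 491, 360 and 197 FPKM in PM, GM and DM. Its log2 fold change was -0.60 ± 0.07 in GM against PM (edgeR adjusted p = 1.37e-05) and -0.81 ± 0.07 in DM against GM (edgeR adjusted p = 1.61e-06). TGFBI, a matrix protein induced by TGF-beta, was at 1045, 739 and 191 FPKM and fell by 2.55 ± 0.11 in DM against PM (edgeR adjusted p = 1.18e-08). MSTN, which encodes myostatin, rose from 3.73 FPKM in PM to 12.8 FPKM in DM (1.69 ± 0.20, edgeR adjusted p = 1.71e-05).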
